A study of Ziziphus jujuba with 15 samples.

Results

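Leaves of the jujube (Ziziphus jujuba) cultivar HS-Haoqing1, ‘HS’ for short, were sampled after 3 d of heat and set against leaves taken at 0 d, the unheated control. ‘HS’ is the cultivar that the study describes as heat sensitive. All 32876 genes of the deposited expression table were taken, 29293 of them with the ID of an annotated gene and the rest newly found by the authors, in the 6 of 15 libraries labelled 3 d or 0 d, replicates a, b and c of each. All were seedlings rooted from cuttings and held at 30 °C in the day and at 20 °C in the night, and the 3 d group was then heated to 45 °C during the day. By the study's methods there were 3 biological replicates of 15 plants each, and a leaf was taken from 6 random plants at a time point, whereas the labels say that the RNA of the replicates was pooled. The labels also name another RNA extraction kit than the methods do, and which of these holds was not settled.

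Heat unfolds proteins and makes membranes more fluid. In plants the response is led by heat shock factors (HSFs), transcription factors that bind the promoters of heat shock protein (HSP) genes. HSPs are chaperones: HSP70 and HSP90 fold client proteins with ATP, small HSPs hold unfolded proteins until they can be refolded, and ClpB (HSP100) pulls aggregates apart. Photosynthesis is among the heat-labile processes of a leaf, and carbon fixation is usually hit before the light reactions.

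Values are FPKM, read fragments scaled for transcript length and library size. They were compared as log2(FPKM + 1) with limma, a linear model with a pooled estimate of the spread, over the 12 libraries at 0, 1, 3 and 5 d. Log2 fold changes (log2FC, 3 d over 0 d, with the standard error, SE) are on that scale, where the change of a weakly expressed gene comes out too small. A gene is called higher or lower where it changed at least 2-fold with an adjusted p (Benjamini-Hochberg) no larger than 0.01. Depth, read from the steps between the lowest FPKM values, was 1.02 to 1.15 at 3 d and 0.960 to 1.00 at 0 d, relative to replicate a at 0 d. Between 17877 and 18060 genes reached 1 FPKM in the libraries at 3 d, against 17392 to 18012 at 0 d.

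Replicate a stood off from b and c, which nearly coincided. Over the 843 genes with a mean of 100 FPKM or more, the median absolute difference between b and c was 0.058 on the log2 scale at 3 d and 0.06 at 0 d. Replicate a differed from b and c by 0.302 and 0.319 at 3 d, and by 0.283 and 0.264 at 0 d. Replicate a at 3 d also correlated about as well with the libraries at 1 d (Pearson's r of 0.932 to 0.934 across genes, which are not independent replicates) as with b and c at 3 d (0.927 and 0.926). The methods call the replicates biological, but the labels' account of pooling does not say whether a, b and c are separate sets of plants, and the p-values measure the spread between these libraries only, which may be partly technical. Counts of calls over all genes and over gene lists are therefore also given with b and c averaged and counted as 1 library, an alternative chosen after seeing the data and referred to as the averaged fit. The 48 leaf markers, genes of the photosystems and their antennae, held 7.09% to 9.72% of all FPKM at 3 d and 6.70% to 9.08% at 0 d, so the libraries had a leaf's profile, and no marker was at 0 in all 6.

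Of 19550 genes tested, 2881 (14.7%) were called, 1555 higher (7.95%) and 1326 lower (6.78%). A log2FC of 2 or more was seen in 232 of the genes that rose, and one of -2 or less in 284 of those that fell. The median log2FC of all tested genes was 0.12. Scaling by median-of-ratios factors brought that median to 0.01 and turned the split round, to 1200 higher and 1617 lower, so the direction of the balance rests on the scaling. With b and c averaged, 342 genes were higher and 210 lower (1.82% and 1.12% of 18767 tested, 2.94% in all), and 550 of these 552 were among the 2881. Without replicate b at all time points the counts were 247 and 147, and without replicate c 234 and 123, while without replicate a they were 2066 and 1716. In whole leaves, fewer cells of a type and less RNA of a gene per cell cannot be told apart.

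**Figure D1:**
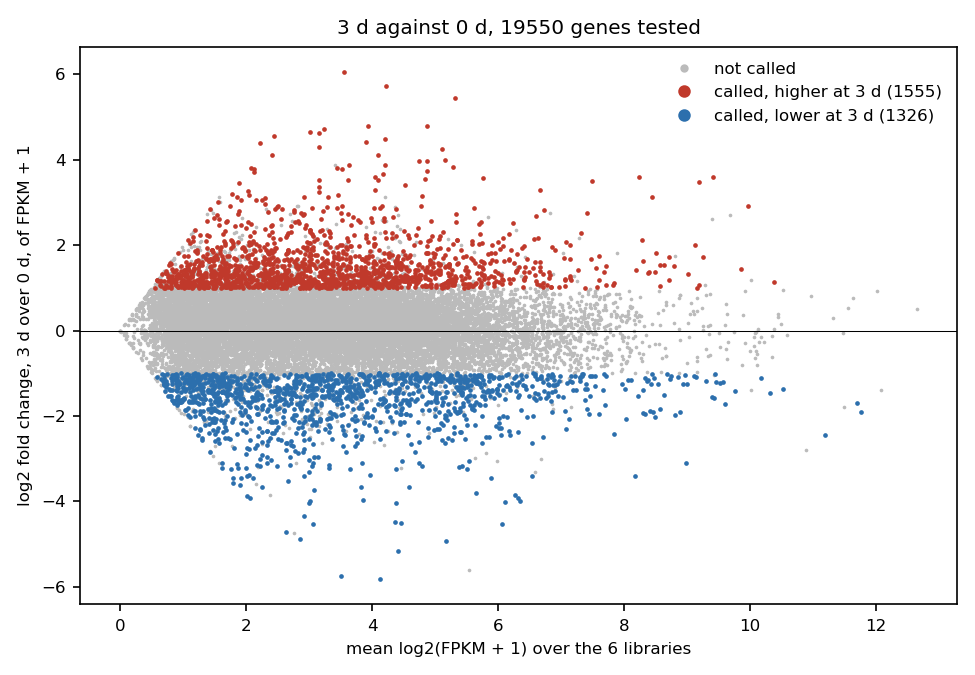
Log2 fold change of FPKM + 1 (3 d over 0 d, vertical axis) against the mean log2(FPKM + 1) over the 6 libraries (horizontal axis), 1 point per gene. The 1555 genes called higher are red, the 1326 called lower are blue and the others of the 19550 tested are grey; the largest rise is 6.05 and the largest fall -5.81.

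A name and an informative protein description could be given to 915 of the tested genes, through the study's tables for another cultivar, ‘HR’, whose libraries were not analysed here, and its lists of transcription factors. These descriptions favour genes that rise: 682 rows came from a table section that holds only genes raised in ‘HR’ at 1 d, and 579 from a section that holds both directions. Of the 915, 367 (40.1%) were called, 283 (30.9%) higher and 84 (9.18%) lower, and that share, not the 7.95% and 6.78% of all genes, is the one to set beside the families below. The pathway lists are likewise the members of a pathway that changed in ‘HR’. Of the 925 tested genes on any of them, 152 (16.4%) were called higher and 228 (24.6%) lower in ‘HS’ at 3 d, with a median log2FC of -0.34. In the averaged fit 57 of them were higher and 50 lower. The 16.4% and 24.6% are the shares to set beside the pathway lists below.

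Chaperones held the largest rises on the log2(FPKM + 1) scale. By the ratio of mean FPKM, the transcription factor TCP15 (LOC107419280), given below, rose 1582-fold from 0.0130 FPKM at 0 d, and LOC107430166 rose 211-fold. The top gene on the log2 scale was LOC107430166, annotated heat shock protein 83, a member of the HSP90 family. It had 82.7, 105 and 98.7 FPKM in replicates a, b and c at 3 d, against 0.621, 0.387 and 0.349 FPKM at 0 d (log2FC 6.05, SE 0.18, limma adjusted p = 7.15e-08). Lack of overlap between the groups was a condition for naming a gene among the largest changes. Of all tested genes 32.1% had all 3 libraries at 3 d above all 3 at 0 d. The second largest rise was that of the class IV small HSP LOC107424261, with 179, 120.5 and 115 FPKM at 3 d and 1.61, 1.39 and 1.67 FPKM at 0 d (5.74, SE 0.21, 1.83e-07). The co-chaperone BAG6 (LOC107423735), a partner of HSP70, had 340.1, 236 and 224 FPKM at 3 d and 5.61, 4.57 and 4.86 FPKM at 0 d (5.45, SE 0.29, 1.57e-06). In both of these genes replicate a was the highest library at 3 d, while in LOC107430166 it was the lowest.

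HSP70 genes rose as well. LOC107406481 (heat shock 70 kDa protein) had 29.3, 54.9 and 50.4 FPKM at 3 d and 0.602, 0.919 and 0.823 FPKM at 0 d (log2FC 4.64, SE 0.58, limma adjusted p = 0.000153). LOC107405906 (heat shock cognate 70 kDa protein), the ID next to it in the table, had 11.2, 18.3 and 16.9 FPKM at 3 d and 0.149, 0.101 and 0.246 FPKM at 0 d (3.79, SE 0.17, 7.54e-07). LOC107423197 (heat shock 70 kDa protein 8) averaged 32.1 ± 2.12 FPKM at 3 d and 2.86 ± 1.54 FPKM at 0 d (SD, n = 3 each; log2FC 3.17, limma adjusted p = 6.55e-06). The groups did not overlap in any of the 3 genes, which was a condition for naming LOC107406481 and LOC107405906 among the largest rises. With b and c averaged the limma call was lost for LOC107406481 (adjusted p = 0.0108) but not for LOC107405906 and LOC107423197.

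Small HSPs of several compartments moved together. The class II gene LOC107420159, whose class is cytosolic, had 96.5, 98.3 and 97.4 FPKM at 3 d and 8.04, 6.79 and 7.3 FPKM at 0 d (log2FC 3.56, SE 0.12, limma adjusted p = 1.09e-07), with hardly any spread in either group. The class I gene LOC107413804 averaged 58.5 ± 16.6 FPKM at 3 d and 3.77 ± 0.699 FPKM at 0 d. Of 2 genes for chloroplast small HSPs, LOC107404752 averaged 71.2 ± 17.2 FPKM at 3 d and 3.83 ± 0.834 FPKM at 0 d, and LOC107428481 averaged 115 ± 17 FPKM at 3 d and 23.6 ± 6.43 FPKM at 0 d (log2FC 3.89 and 2.26). Another class II gene, LOC107420073, was listed at 0 in all 3 libraries at 0 d and had 2.16, 1.47 and 2.11 FPKM at 3 d.

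The family holds further kinds of chaperone. ClpB1 (LOC107419106), the cytosolic disaggregase, averaged 32.6 ± 1.44 FPKM at 3 d and 7.33 ± 1.85 FPKM at 0 d (log2FC 2.04). Its mitochondrial relatives annotated ClpB4, LOC107420312 and LOC107422833, rose with a log2FC of 1.50 and 1.19. DnaJ proteins hand clients to HSP70, and dnaJ 11 of the chloroplast (LOC107427541) and dnaJ 3 (LOC107425032) rose by 2.54 and 1.54. The 10 kDa chaperonin LOC107431513 had a log2FC of 1.52, and the mitochondrial BAG5 gene LOC107417637 one of 1.94. In total 16 of the 20 tested members of the annotated HSP and chaperone family were called higher and none lower (median log2FC 1.99), against 30.9% of all described genes, and 11 were called higher with b and c averaged. Among the 6 tested members that come from the table section with both directions, 5 were called higher, and 3 in the averaged fit.

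**Figure D2:**
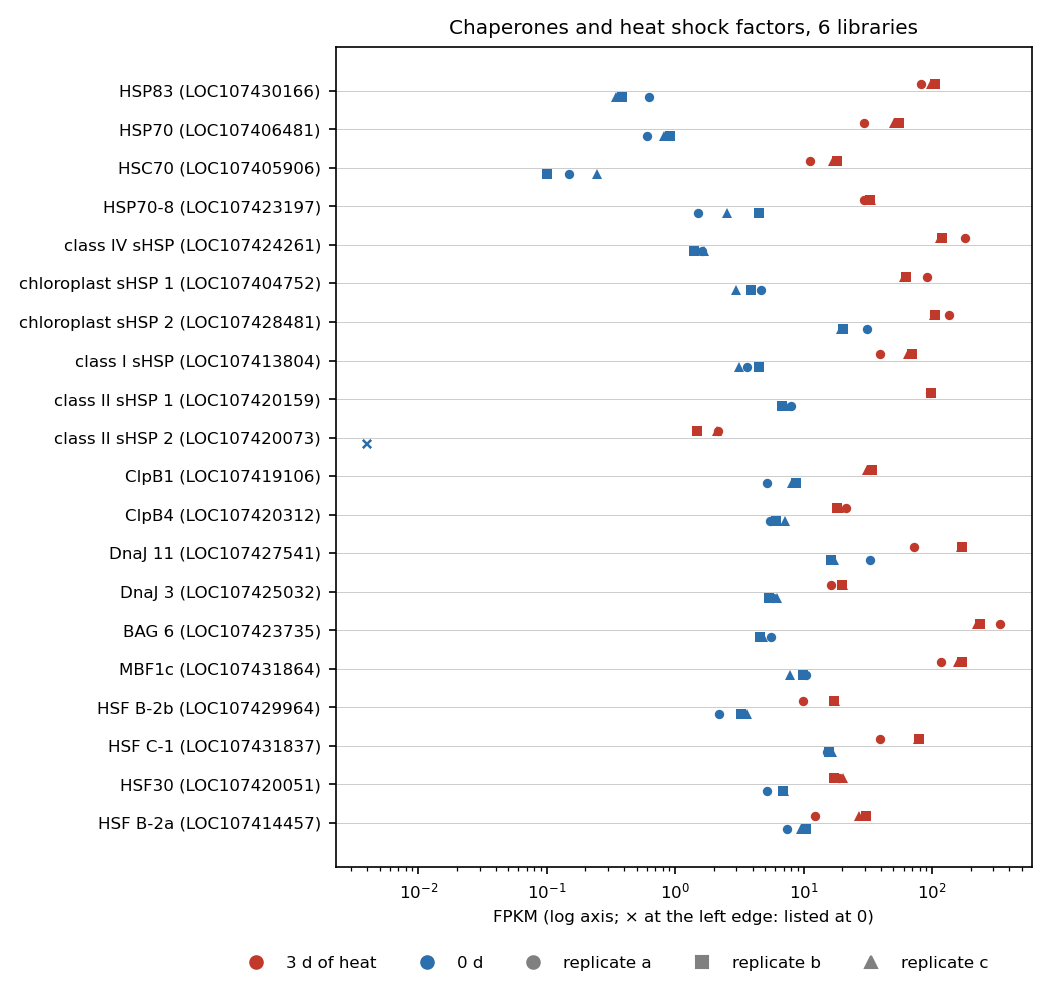
FPKM (horizontal log axis) of 20 chaperone, co-activator and heat shock factor genes in each library, at 3 d (red, upper row of each gene) and at 0 d (blue, lower row), with replicates a, b and c as circles, squares and triangles. The red and blue points of each gene are apart, from 2.55-fold between the means of HSF B-2a to 211-fold for HSP83, and the cross marks the gene listed at 0 in all 3 libraries at 0 d.

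The pathway lists of protein folding and heat share several of the chaperone genes above, so they add no separate evidence. Of the tested genes on any pathway list 16.4% were called higher. On the Gene Ontology list protein folding, 18 of 23 tested members were called higher and none lower (median log2FC 2.04), and 12 were higher in the averaged fit. Besides chaperones this list holds peptidyl-prolyl isomerases of the FKBP type and plastid proteases. The probable zinc metallopeptidase EGY3, a thylakoid protein, has 2 genes on it: LOC107434350 averaged 46.8 ± 6.63 FPKM at 3 d and 5.70 ± 2.28 FPKM at 0 d. The list response to heat had 18 of 33 called higher and 2 lower, and response to hydrogen peroxide 9 of 12 higher and none lower. In the averaged fit these were 10 higher and 2 lower, and 6 higher and none lower. FTSH6 (LOC107405151), a thylakoid protease, stands on both and averaged 31.1 ± 6.4 FPKM at 3 d and 3.88 ± 1.59 FPKM at 0 d (log2FC 2.74). Cytosolic ascorbate peroxidase 2 (LOC107432898), which removes hydrogen peroxide, also stands on both, with 73.5, 41.2 and 39.6 FPKM at 3 d and 4.95, 8.58 and 7.90 FPKM at 0 d (log2FC 2.66, SE 0.25, limma adjusted p = 2.95e-05). Other members of its metabolic pathways did not follow it. On the list ascorbate and aldarate metabolism it was the only one of 17 tested members called higher, with 8 called lower, and on glutathione metabolism the only one of 27, with 6 called lower. The averaged fit left 2 and 0 of these lower. The list for protein processing in the endoplasmic reticulum, which was shortened in the table it came from, had 28 of 55 members called higher and 4 lower (median 1.19), or 15 and 2 in the averaged fit. Of the 4, 1 is described, a Derlin of the export route for misfolded proteins, and the described members with the largest rises are HSPs named above.

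Heat shock factors rose by less than 4-fold on the log2(FPKM + 1) scale. HSF C-1 (LOC107431837) had 39.1, 79.3 and 77.8 FPKM at 3 d and 15.3, 15.8 and 16.5 FPKM at 0 d (log2FC 1.91, SE 0.26, limma adjusted p = 0.00028), so replicate a at 3 d lay between the control and replicates b and c. The study lists another FPKM for this gene in replicate a at 3 d, so that position is uncertain. B-2b (LOC107429964), of a class that lacks the activation motif of class A factors, averaged 14.8 ± 4.32 FPKM at 3 d and 3.04 ± 0.749 FPKM at 0 d (log2FC 1.95), and B-2a (LOC107414457) 23.3 ± 9.74 FPKM at 3 d and 9.13 ± 1.56 FPKM at 0 d (log2FC 1.18). HSF30 (LOC107420051), named after a tomato factor of class A, had 18.8, 17.3 and 20.2 FPKM at 3 d and 5.16, 6.89 and 7.04 FPKM at 0 d (log2FC 1.43). In all, 4 of 7 tested factors were called higher and none lower, against 30.9% and 9.18% of all described genes. None of the 7 was called with b and c averaged, where the limma adjusted p of the 4 ran between 0.0156 and 0.0861. The family list holds 2 factors that the study had picked on ‘HS’ itself. MBF1c (LOC107431864), a transcriptional co-activator of the heat response in Arabidopsis, rose more than any of the factors, to 117, 171 and 158 FPKM at 3 d, against 10.5, 9.93 and 7.88 FPKM at 0 d (log2FC 3.83, SE 0.18, limma adjusted p = 8.01e-07).

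The other transcription factors given here and a zinc finger protein all rose, while the factor families below held calls in both directions. TCP15 (LOC107419280), of a family that regulates leaf growth, averaged 20.6 ± 3.83 FPKM at 3 d and was all but absent at 0 d, with 0.016, 0.0153 and 0.00782 FPKM (log2FC 4.40, SE 0.15, limma adjusted p = 1.09e-07). The bZIP gene LOC107418952 had 26.5, 60.1 and 64.1 FPKM at 3 d and 2.76, 2.22 and 1.82 FPKM at 0 d (log2FC 3.88). SAP8 (LOC107417576), a stress-associated zinc finger protein with A20 and AN1 domains, was one of the most abundant of the genes that rose, with 2088, 2457 and 2629 FPKM at 3 d and 213, 186 and 188 FPKM at 0 d (log2FC 3.60). MYB1R1 (LOC107430316) averaged 184 ± 37 FPKM at 3 d and 30.6 ± 1.4 FPKM at 0 d (log2FC 2.53). All 4 kept their call with b and c averaged.

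Ethylene response factors (AP2/ERF) were the largest factor family with a description, with 8 of 25 tested members called higher and 3 lower. These shares are near the 30.9% and 9.18% of all described genes. Of the 2 tested members from the table section with both directions, none was called. Factor 4 of this family, a repressor in Arabidopsis, has 3 genes here, LOC107417413, LOC107432496 and LOC107425282, and all rose (log2FC 2.80, 2.41 and 1.48). So did both genes annotated RAP2-4, LOC107408332 and LOC107405213 (2.15 and 1.69), ERF6 (LOC107430379, 1.81), ERF018 (LOC107404986, 1.53) and ERF7 (LOC107432807, 1.18). ERF010 (LOC107424539), DREB2A (LOC107406487) and RAP2-12 (LOC107435298) fell, by 2.06, 1.27 and 1.16 on the log2 scale. DREB2A activates heat and drought genes in Arabidopsis, and here it had 1.97, 2.05 and 2.96 FPKM at 3 d and 6.80, 5.67 and 8.69 FPKM at 0 d. RAP2-12, known there as a sensor of low oxygen, averaged 223 ± 14.4 FPKM at 3 d and 499 ± 8.05 FPKM at 0 d. With b and c averaged only 1 of the 11, LOC107405213, was still called.

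NAC factors, many of which are tied to drought, senescence and abscisic acid, had 5 of 10 tested members called higher and none lower. The largest rise was that of NAC72 (LOC107406551), where the libraries nearly met: 4.09, 23.3 and 19.8 FPKM at 3 d against 2.88, 0.132 and 0.223 FPKM at 0 d (log2FC 2.97, SE 0.58, limma adjusted p = 0.00207), with replicate a of each time point next to the other. NAC29 (LOC107428947) showed the same spread at 3 d, with 9.22, 48.1 and 49.6 FPKM, and 4.07, 3.39 and 2.78 FPKM at 0 d. NAC100 (LOC107419222), NAC2 (LOC107421097) and NAC86 (LOC107416163) had a log2FC of 1.58, 1.43 and 1.25. Of all described genes 30.9% were called higher, and none of the NAC calls held with b and c averaged. Of the basic helix-loop-helix factors bHLH35 (LOC107421731) rose by 2.55 and bHLH48 (LOC107432409) fell by 1.69, and of the MYB family the hair-cell regulator CPC (LOC107419634) fell by 1.48, all 3 without a call in the averaged fit. None of the 7 WRKY factors tested, regulators of defence, was called either way, and 2 of them lay above and 2 below all control libraries. Of all tested genes 32.1% lay above and 21.9% below. The families of ERF, NAC and bHLH factors also hold a few members picked on ‘HS’, 6 with the HSFs, and those counts are no independent evidence of direction.

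Ubiquitin tags proteins for degradation, through conjugating enzymes (E2) and ligases (E3). E2 28 (LOC107431489), one of the most abundant genes that rose, had 889.7, 1123 and 1158 FPKM at 3 d and 81.6, 89.7 and 85.4 FPKM at 0 d (log2FC 3.60, SE 0.12, limma adjusted p = 1.09e-07). Among ligases 11 of 36 were called higher and 3 lower (median 0.76), a share near the 30.9% of all described genes called higher, and in the averaged fit 1 was higher and 2 were lower. The F-box protein EID1-like 3 (LOC107426013) had 29.3, 91.7 and 92.6 FPKM at 3 d and 5.92, 3.54 and 3.03 FPKM at 0 d (3.67, SE 0.39, 6.05e-05). RMA1H1 (LOC107403709), a ligase of the endoplasmic reticulum membrane in pepper, the F-box/LRR-repeat protein 4 gene LOC107427608, FANCL (LOC107424969) and RHA2A (LOC107413313) had a log2FC of 2.56, 2.54, 1.83 and 1.71. The ligase annotated RING1-like (LOC107419658) went the other way, with 2.66 ± 0.501 FPKM at 3 d and 14.9 ± 0.658 FPKM at 0 d (-2.12). Most of these ligases come from the section of raised genes. Among the 15 that stand in the section with both directions, 2 were called higher and 3 lower, or 0 and 2 in the averaged fit. SCE1 (LOC107419968), which conjugates the ubiquitin-like SUMO, rose by 1.33. On the list of the proteasome, the complex that degrades tagged proteins, 5 of 10 tested members were called lower and none higher (median -0.98), with 2 lower in the averaged fit. Of the 10, 9 had all 3 libraries at 3 d below all 3 at 0 d. So had 391 of the 925 tested genes of the pathway lists, and 21.9% of all tested genes.

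**Figure D3:**
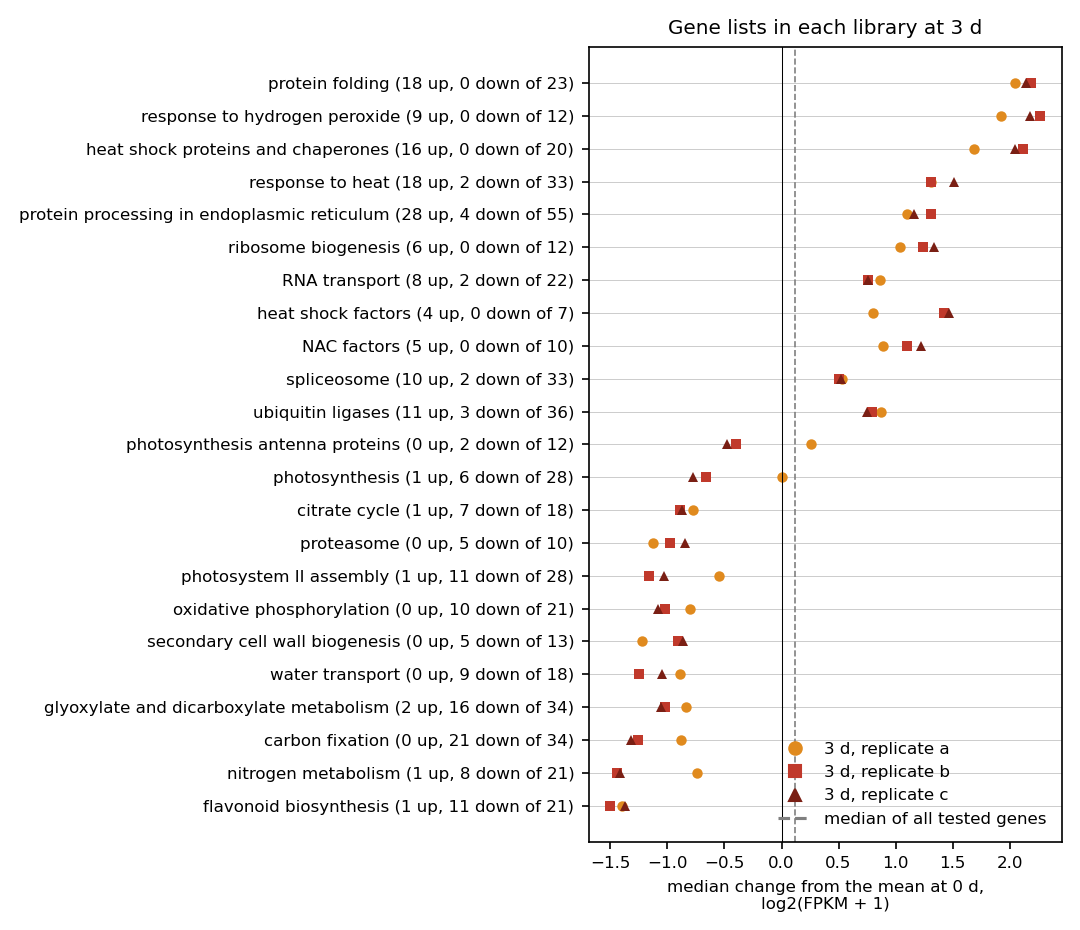
Median change of the tested members of 23 gene lists (horizontal axis, log2(FPKM + 1) minus the mean at 0 d) in replicates a (circle), b (square) and c (triangle) at 3 d, with the numbers called higher (up) and lower (down) of those tested beside each name and the median of all tested genes as a dashed line. Protein folding stood at 2.05 to 2.19 and flavonoid biosynthesis at -1.37 to -1.50 in the 3 libraries, while the antenna proteins were at 0.26 in replicate a and at -0.40 and -0.48 in b and c.

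Genes of carbon fixation and photorespiration were lower. On the carbon fixation list, with enzymes of the Calvin cycle and related steps, 21 of 34 tested members were called lower and none higher (median log2FC -1.10), against 24.6% lower for the pathway lists as a whole, and 5 were called lower with b and c averaged. The plastid enzyme phosphoglycerate kinase 2 (LOC107417916) had 323, 216 and 202 FPKM at 3 d and 479.6, 544 and 546 FPKM at 0 d (log2FC -1.11, SE 0.17, limma adjusted p = 0.000608). Ribulose-phosphate 3-epimerase (LOC107419187), which regenerates the acceptor of carbon dioxide, averaged 163 ± 34 FPKM at 3 d and 388 ± 77.9 FPKM at 0 d. Cytosolic glyceraldehyde-3-phosphate dehydrogenase (LOC107418185) averaged 509 ± 109.5 FPKM at 3 d and 1166 ± 111 FPKM at 0 d, and the NADP-dependent malic enzyme (LOC107420388) 11.6 ± 1.06 FPKM at 3 d and 55.8 ± 13.8 FPKM at 0 d (log2FC -2.14). Glycine dehydrogenase (LOC107420125), an enzyme of photorespiration, had 592, 510.4 and 497 FPKM at 3 d and 1796, 1246 and 1302 FPKM at 0 d. The list that holds it, glyoxylate and dicarboxylate metabolism, had 16 of 34 members called lower and 2 higher, or 6 and 1 in the averaged fit. In these lists replicate a at 3 d changed less than b and c, with a median of -0.88 against -1.26 and -1.32 for carbon fixation.

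On the lists of the light reactions fewer genes were called, and the difference from carbon fixation was not tested. Of 28 tested members of the photosynthesis list 6 were called lower and 1 higher, where 41.1% of the pathway lists as a whole were called, and of 12 antenna genes 2 lower and none higher. With b and c averaged none was called on either list. Replicate a at 3 d stood apart here, with a median change of 0.00 on the photosynthesis list against -0.66 in b and -0.78 in c. Subunit III of photosystem I (LOC107418592) fell, with 534, 352 and 296 FPKM at 3 d and 912, 767 and 718 FPKM at 0 d (log2FC -1.06). By contrast the 10 kDa polypeptide of photosystem II (LOC107423325), among the 5 most abundant genes at 3 d, had 6186, 5379 and 5578 FPKM at 3 d and 3374, 2963 and 2749.7 FPKM at 0 d, a log2FC of 0.92 that misses the fold threshold. The antenna protein CP29.2 (LOC107430831) averaged 3667 ± 694 FPKM at 3 d and 2514 ± 319.7 FPKM at 0 d (0.53, adjusted p = 0.0508). The 3 other genes among the 5 most abundant at 3 d have no description, and none was called. The list photosystem II assembly had 11 of 28 called lower and 1 higher (median -0.90). Electron transport in photosystem I had 5 of 17 lower and none higher (median -0.71), with 10 of the 17 below all control libraries, against 391 of 925 for the pathway lists. In the averaged fit 2 of the first and 0 of the second were lower. The plastid ribosomal proteins S9 (LOC107420281) and L1 (LOC107417706) fell by 1.43 and 1.09, while L18 (LOC107429015) rose by 1.07.

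Calls on the lists of respiration and nitrogen metabolism were mostly in the lower direction. Of the tested genes on any pathway list, 24.6% were called lower and 16.4% higher. Oxidative phosphorylation had 10 of 21 tested members called lower and none higher, the citrate cycle 7 of 18 lower and 1 higher, and glycolysis and gluconeogenesis, a shortened list, 20 of 53 lower and 3 higher. In the averaged fit 3, 6 and 5 of these were lower. The exception in the citrate cycle was mitochondrial aconitate hydratase 2 (LOC107433052), with 22.4, 30.6 and 31 FPKM at 3 d and 2.55, 1.30 and 1.60 FPKM at 0 d (log2FC 3.37, SE 0.18, limma adjusted p = 1.38e-06). On the nitrogen metabolism list 8 of 21 were called lower and 1 higher, but 1 lower and 0 higher in the averaged fit, and 0 lower without replicate b or without replicate c at all time points. Glutamine synthetase, which binds ammonium into glutamine, fell in the gene annotated as its nodule isozyme (LOC107419571), to 22.3, 11.9 and 13.1 FPKM at 3 d, against 56.0, 88.4 and 81.1 FPKM at 0 d (-2.21). The exception, alpha carbonic anhydrase 4 (LOC107431633), averaged 1.91 ± 0.481 FPKM at 3 d and 0.193 ± 0.0883 FPKM at 0 d.

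Single genes of primary metabolism rose, several of them on lists with more calls lower than higher. Branched-chain aminotransferase 2 (LOC107420601), of valine, leucine and isoleucine turnover, had 250.1, 295 and 296 FPKM at 3 d and 39.9, 37.7 and 38.8 FPKM at 0 d (log2FC 2.82, SE 0.25, limma adjusted p = 2.43e-05), on an amino acid biosynthesis list with 22 of 56 members called lower and 3 higher (8 and 2 in the averaged fit). Methionine salvage recycles the sulfur left over from ethylene and polyamine synthesis, and its isomerase LOC107423916 and dioxygenase LOC107423094 rose by 1.47 and 1.06, on a cysteine and methionine list with 11 of 36 called lower and 7 higher (median -0.39; 5 and 2 in the averaged fit). Both genes annotated trehalose-phosphate synthase and named on the starch and sucrose list were higher: TPS6 (LOC107404500) averaged 57.2 ± 19.2 FPKM at 3 d and 12.2 ± 1.02 FPKM at 0 d, and LOC107418465 averaged 3.41 ± 0.653 FPKM at 3 d and 0.0492 ± 0.0166 FPKM at 0 d. Sucrose-phosphate synthase 2 (LOC107422414) rose by 1.68. That list as a whole had 13 of 61 called lower and 10 higher (median -0.75), or 1 and 3 in the averaged fit. On galactose metabolism, the route to the raffinose sugars, 5 of 21 were called higher and 1 lower, or 3 and 0 in the averaged fit. A peroxisomal gene annotated sarcosine oxidase (LOC107429922) averaged 77.3 ± 25.3 FPKM at 3 d and 9.24 ± 2.56 FPKM at 0 d. Among lipid genes glycerol-3-phosphate acyltransferase 3 (LOC107426107) rose by 2.16 and a plastid acyl carrier protein thioesterase (LOC107429411) by 1.88. Their lists did not rise as a whole. Glycerophospholipid metabolism had 4 of 22 called higher and 4 lower, and fatty acid biosynthesis 3 of 16 higher and 6 lower. Fatty acid degradation had 5 of 27 higher and 7 lower, and alpha-linolenic acid metabolism 2 of 19 higher and 4 lower. In the averaged fit 0, 1, 0 and 0 of these were higher and 1, 0, 0 and 1 lower. LOC107433698 and LOC107420431, both annotated lecithin-cholesterol acyltransferase-like 1, were called higher with nearly the same FPKM in every library, so their reads may be shared and each value is uncertain.

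Flavonoid genes had the lowest median among the lists with 20 or more tested members. Of 21 genes 11 were called lower and 1 higher, with a median log2FC of -1.52, against 24.6% called lower for the pathway lists as a whole. Flavonoid 3'-monooxygenase (LOC107419096), which sets the hydroxylation of the B ring, had 0.89, 4.22 and 3.91 FPKM at 3 d and 26.6, 87.8 and 75.0 FPKM at 0 d (log2FC -3.97, SE 0.46, limma adjusted p = 0.000101). Dihydroflavonol 4-reductase, the step towards anthocyanins and tannins, fell in both of its genes: LOC107420293 had 1.51, 4.52 and 5.44 FPKM at 3 d and 33.7, 31.6 and 28.0 FPKM at 0 d (-2.84), and LOC107420289 averaged 3.53 ± 1.25 FPKM at 3 d and 17.6 ± 3.56 FPKM at 0 d (-2.06). Leucoanthocyanidin reductase (LOC107418854), of the tannin branch, averaged 5.36 ± 1.36 FPKM at 3 d and 27.0 ± 11.9 FPKM at 0 d (-2.08). None of these 4 kept its call with b and c averaged, where 2 genes of the list were called lower. Phenylpropanoid biosynthesis, which feeds flavonoids and lignin, had 15 of 43 called lower and 6 higher, but 0 lower and 2 higher in the averaged fit. Peroxidase 42 (LOC107420772) fell, with 309, 428 and 454 FPKM at 3 d and 869, 1403 and 1282 FPKM at 0 d, and peroxidase 4 (LOC107405097) rose, with 76.9, 86.7 and 93.4 FPKM at 3 d and 29.3, 26.7 and 23.8 FPKM at 0 d.

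**Figure D4:**
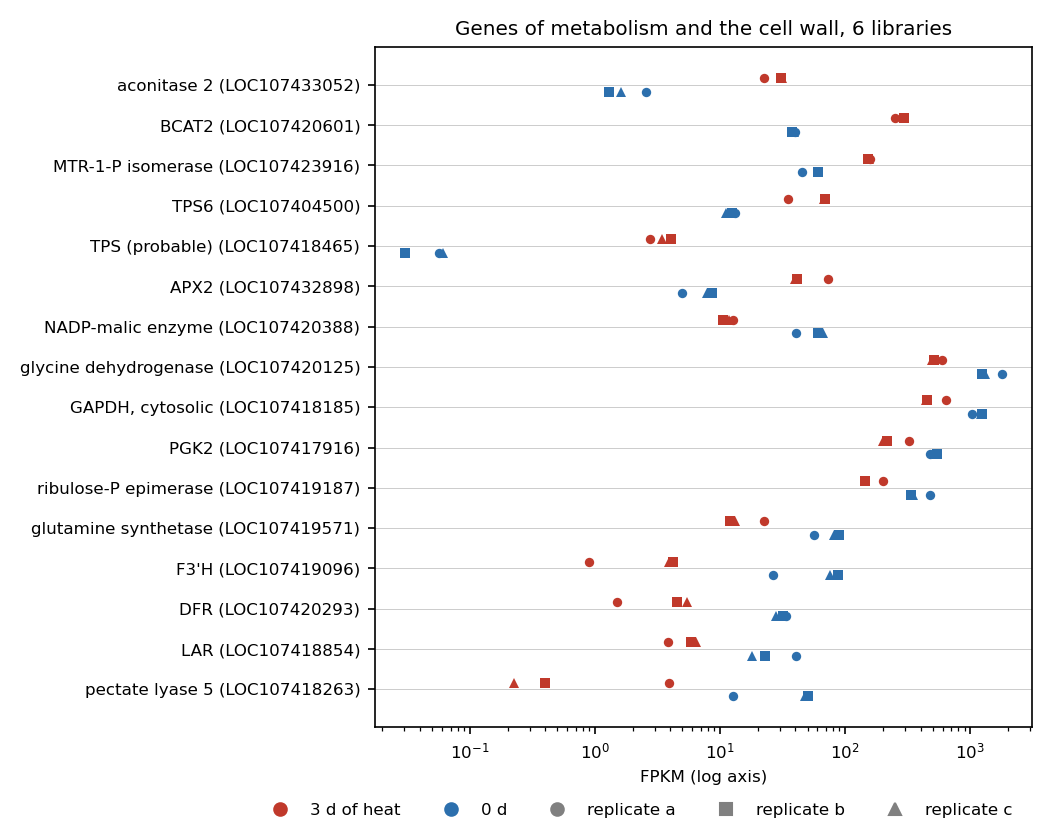
FPKM (horizontal log axis) of 16 genes of metabolism and the cell wall in each library, at 3 d (red, upper row of each gene) and at 0 d (blue, lower row), with replicates a, b and c as circles, squares and triangles. The upper 6 genes are higher at 3 d, led by TPS (probable) with 3.41 against 0.0492 FPKM on average, and the lower 10 are lower. Pectate lyase 5 has the lowest ratio of mean FPKM, 3 d over 0 d (0.0408), and its replicates b and c at 3 d are below 1 FPKM.

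Genes of the cell wall moved in both directions. Secondary cell wall biogenesis, a list that also serves as the marker of xylem and fibre cells, had 5 of 13 called lower and none higher (0 lower in the averaged fit), and its summed level was 38.2 to 61.0 FPKM at 3 d and 70.3 to 79.5 FPKM at 0 d, with no member at 0 throughout. On the water transport list 9 of 18 were called lower and none higher, with 3 lower in the averaged fit. The 2 of the 9 with a description are not channels: peroxidase 42, given above, and COBRA (LOC107419027), which orients cellulose, with 17.7 ± 3.29 FPKM at 3 d and 49.1 ± 10.9 FPKM at 0 d. Pectate lyase 5 (LOC107418263), which cuts pectin, had the largest fall of any described gene, nearly level with flavonoid 3'-monooxygenase (log2FC -3.97). The lyase had 3.88, 0.399 and 0.224 FPKM at 3 d and 12.6, 50.5 and 47.3 FPKM at 0 d (log2FC -3.99, SE 0.63, limma adjusted p = 0.000607). With b and c averaged its call was lost (0.0355), and the order turned, with a log2FC of -3.36 for the lyase and -3.95 for the monooxygenase. Of 16 described wall enzymes 6 were called higher and none lower (median 0.54), against 30.9% of all described genes called higher. In the averaged fit 1 of them was higher. Of 11 members of the glucan metabolism list 1 was higher and 2 were lower (median 0.27), with none in the averaged fit. Glucan endo-1,3-beta-glucosidase LOC107418979, of a family that cuts callose and fungal walls, had 61.5, 102 and 103 FPKM at 3 d and 0.634, 5.30 and 4.84 FPKM at 0 d (4.48, SE 1.01, 0.00486; 0.0523 with b and c averaged). The 6 dividing-cell markers summed to 54.9 to 60.1 FPKM at 3 d and 105 to 114 FPKM at 0 d. Histone H4 (LOC107433172) averaged 32.9 ± 1.89 FPKM at 3 d and 74.1 ± 0.85 FPKM at 0 d and cyclin-D1-1 (LOC107419860) 7.31 ± 1.33 FPKM at 3 d and 16.8 ± 3.84 FPKM at 0 d, while the kinesin NACK1 (LOC107420364) rose by 1.05. The part of fewer dividing or lignifying cells in the wall lists was not tested.

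On the lists of ribosome biogenesis, RNA transport and the spliceosome more genes were called higher than lower, and on the ribosome list fewer. For the pathway lists as a whole 16.4% were called higher and 24.6% lower. Ribosome biogenesis had 6 of 12 called higher and none lower (median 1.16), RNA transport 8 of 22 higher and 2 lower, the spliceosome 10 of 33 higher and 2 lower, and the ribosome 3 of 21 higher and 5 lower (median 0.11). In the averaged fit 1, 3, 8 and 1 of these were higher and 0, 0, 1 and 0 lower. The spliceosome list counts HSP70 genes, which serve there as well, among its largest rises. Its other named members were the U5 component YLS8 (LOC107421866), with 60.4 ± 3.4 FPKM at 3 d and 13.9 ± 4.7 FPKM at 0 d, and the splicing factor SCL30A (LOC107432286), with 58.3, 61.2 and 66.9 FPKM at 3 d and 21.5, 20.7 and 21.6 FPKM at 0 d. SUI1 (LOC107432484), a translation initiation factor, was the most abundant described gene called, at 2149, 3084 and 3211 FPKM at 3 d and 329, 383 and 378 FPKM at 0 d (log2FC 2.93, SE 0.17, limma adjusted p = 2.15e-06). A second initiation factor, eIF5 (LOC107420996), had 176, 166 and 165 FPKM at 3 d and 56.6, 60.5 and 61.8 FPKM at 0 d. The pentatricopeptide gene LOC107434337, of a family that edits and cuts organelle RNA, rose by 2.41. It stands on the list mRNA modification, where 4 of 21 were called higher and 4 lower (median -0.21), or 1 and 1 in the averaged fit.

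Hormone and calcium signalling was mixed, with 10 of 64 tested members of the hormone list called higher and 13 lower, or 2 and 3 in the averaged fit. Auxin response factor 5 (LOC107420386) had 14.1, 24.6 and 20.8 FPKM at 3 d and 3.00, 2.68 and 3.38 FPKM at 0 d (log2FC 2.34, SE 0.18, limma adjusted p = 1.14e-05). An ABI5-like factor of abscisic acid signalling (LOC107420002) had 105, 229.6 and 233 FPKM at 3 d and 76.3, 68.7 and 68.0 FPKM at 0 d, with replicate a near the control. TIFY 6B (LOC107419347), a repressor of jasmonate responses, fell to 38.5, 38.3 and 37.5 FPKM at 3 d, against 99.4, 103 and 104 FPKM at 0 d. The calcium sensors split: calmodulin-like protein 11 (LOC107418972) fell by 2.39 and CML44 (LOC107421107) rose by 1.69. Of receptor-like kinases and proteins 3 of 27 were called higher and 4 lower (2 and 0 in the averaged fit), where 40.1% of described genes were called, and receptor-like protein 12 (LOC107427874) averaged 16.0 ± 9.62 FPKM at 3 d and 92.3 ± 33 FPKM at 0 d. Of 19 cytochromes P450, enzymes of specialised metabolism, 2 were called higher and 1 lower, none of them in the averaged fit. The last is P450 71A1 (LOC107418334), with 46.7 ± 10.4 FPKM at 3 d and 189.7 ± 52.7 FPKM at 0 d.

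Further described genes among the 15 that fell furthest have various roles. Most of the 15 carry IDs from gene10633 to gene12596, so the described falls come from a narrow range of IDs. Tetraketide alpha-pyrone reductase 1 (LOC107419792), of sporopollenin synthesis, had 1.31, 2.16 and 1.35 FPKM at 3 d and 15.5, 14.9 and 16.2 FPKM at 0 d (log2FC -2.68, SE 0.21, limma adjusted p = 1.05e-05). The feruloyl transferase LOC107420357, of suberin synthesis, fell by 2.13, the ABC transporter B13 (LOC107420404) by 2.51, a methyltransferase of the resveratrol type (LOC107419061) by 2.18 and organ-specific protein P4 (LOC107419412) by 3.22. The gene annotated pollen-specific protein SF21 (LOC107420081), which is thus read in leaves, had 2.58, 1.74 and 1.52 FPKM at 3 d and 17.6, 18.9 and 19.6 FPKM at 0 d (-2.76). A putative DNA-binding factor (LOC107419951) fell by 2.96.

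The largest changes of all include genes without a description. gene6579 and gene7002 rose by 4.80 and 4.79, and gene6747, gene20303, gene20432, gene15061 and gene9679 had a log2FC of -5.81, -5.75, -5.15, -4.93 and -4.87, the 5 largest falls. gene20303 had 1.03, 0.306 and 0.39 FPKM at 3 d and 67.4, 91.4 and 89.9 FPKM at 0 d. gene20432 rests on its replicates unequally, with 21.2, 0.332 and 0.542 FPKM at 3 d and 144, 111 and 123 FPKM at 0 d. Newly found genes made up 185 of the genes called higher and 64 of those called lower, of 1674 tested, which is 14.9% called, against 14.7% of all tested genes (23 higher and 5 lower in the averaged fit). On-off patterns were rare: 5 genes were listed at 0 in all 3 libraries at 0 d and at 1 FPKM or more in all 3 at 3 d, and 8 the other way round. gene3216, gene1754 and gene30061 were listed at 0 in all libraries at 3 d and had 8.15, 28.4 and 5.22 FPKM, 6.87, 8.95 and 9.38 FPKM, and 4.71, 8.48 and 5.85 FPKM at 0 d. Ziziphus_jujuba_newGene_8058 was listed at 0 in every library at 0, 1, 5 and 7 d and had 2.66, 2.35 and 2.63 FPKM at 3 d. The others were 4 genes listed at 0 at 0 d, the small HSP LOC107420073, Ziziphus_jujuba_newGene_95, Ziziphus_jujuba_newGene_4340 and Ziziphus_jujuba_newGene_6038, and 5 listed at 0 at 3 d with at most 3.78 FPKM in a library at 0 d.

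Set beside the neighbouring time points, few genes were called. Against 1 d 47 genes (0.240%) were called, with 26 (0.133%) higher and 21 (0.107%) lower at 3 d. At 5 d against 3 d 71 (0.363%) were called, 44 (0.225%) of them higher and 27 (0.138%) lower at 5 d. Both counts were 0 in limma with b and c averaged, where 1623 and 1345 genes had an unadjusted p under 0.05, and leaving out replicate b or c, at all time points or at 1, gave between 0 and 10. Without replicate a at all time points they were 906 and 852. With all replicates kept, 4167 genes (3 d against 1 d) and 3402 genes (5 d against 3 d) had an unadjusted limma p under 0.05. The low counts of calls thus do not show that little changed. SAP8 averaged 2391 ± 276 FPKM at 3 d and 1055 ± 34.4 FPKM at 1 d (LOC107417576, log2FC 1.17, limma adjusted p = 0.00384). Auxin response factor 5 averaged 19.8 ± 5.33 FPKM at 3 d and 6.39 ± 0.523 FPKM at 1 d (LOC107420386, 1.46, 0.00558). Peroxidase 4 averaged 85.7 ± 8.28 FPKM at 3 d and 17.3 ± 0.751 FPKM at 1 d (LOC107405097, 2.24, 0.0038), with 26.6 FPKM at 0 d. Dirigent protein 4 (LOC107427588), which guides lignan coupling, and the seed maturation protein PM36 (LOC107418978) were lower at 3 d than at 1 d, with 7.30 ± 3.59 FPKM against 34.2 ± 2.68 FPKM and 5.54 ± 0.75 FPKM against 14.5 ± 0.823 FPKM.

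At 5 d a few named genes stood far from their level at 3 d. The sugar phosphate translocator GPT2 (LOC107420411) averaged 0.52 ± 0.0361 FPKM at 5 d and 15.8 ± 4.29 FPKM at 3 d (log2FC, 5 d over 3 d, -3.44, limma adjusted p = 0.00278). Its level at 3 d was not called against 1 d (2.78 ± 1.84 FPKM, adjusted p = 0.017) or against 0 d (9.52 ± 2.62 FPKM). Expansin-like B1 (LOC107430372), of a family that loosens walls, averaged 133 ± 23.1 FPKM at 5 d and 8.12 ± 1.07 FPKM at 3 d (3.87, 0.00223). HVA22-like protein d, a stress gene of the endoplasmic reticulum, was higher at 5 d in both LOC107403470 and LOC107418021 (2.09 and 2.56), and so was MADS6 (LOC107417991, 2.04). APS reductase 1 (LOC107420715), of sulfate assimilation, and the wax enzyme KCS10 (LOC107420173) fell by 1.42 and 1.25 at 5 d. LOC107430166 (HSP83) did not pass either test: it averaged 0.452 FPKM at 0 d, 58.7 FPKM at 1 d, 95.6 FPKM at 3 d and 120.2 FPKM at 5 d, with an adjusted p of 0.052 for 3 d against 1 d and 0.369 for 5 d against 3 d.

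**Figure D5:**
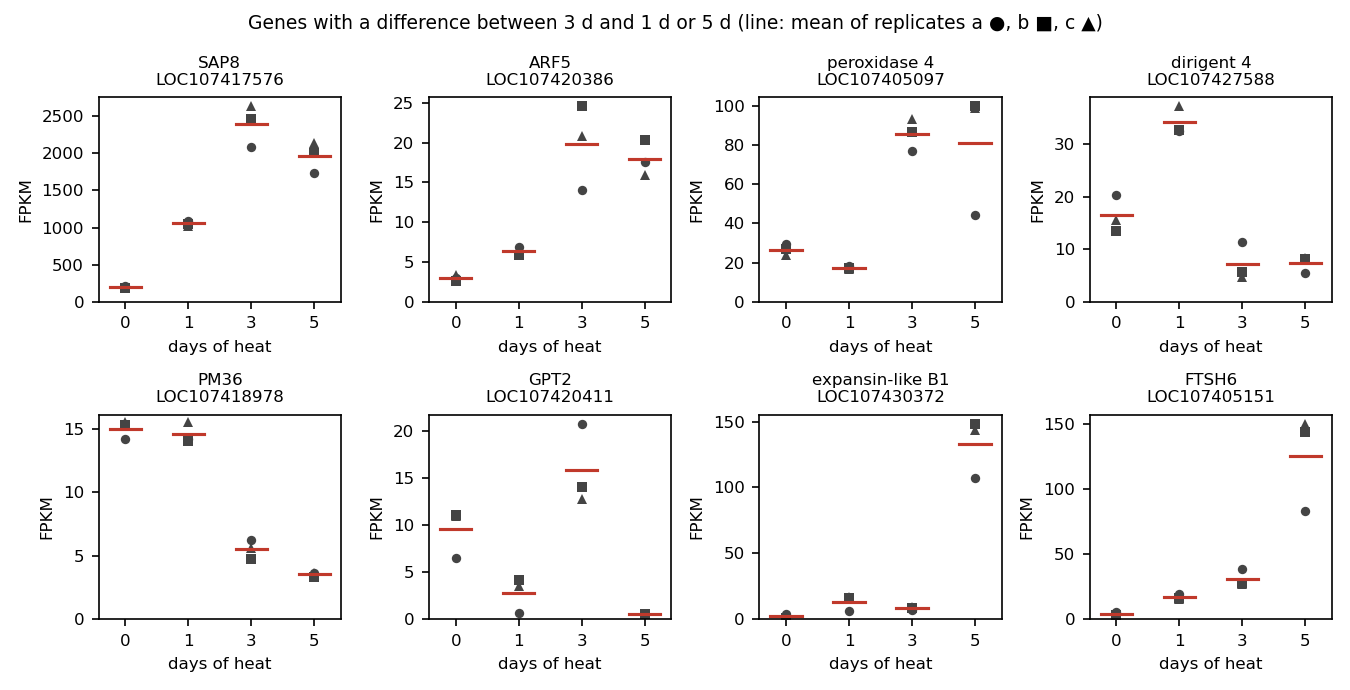
FPKM (vertical axis, from 0) at 0, 1, 3 and 5 d of heat of 8 genes with a difference between 3 d and a neighbouring time point, 1 symbol per library and a red line at the mean of each time point. GPT2 stands at 15.8 FPKM at 3 d and at 0.52 FPKM at 5 d on average, and expansin-like B1 at 8.12 and 133 FPKM, while FTSH6 has 31.1 FPKM at 3 d and 125 FPKM at 5 d.

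The study picked 9 of its own differentially expressed genes for qRT-PCR, so a call here is no independent evidence. No qRT-PCR value was compared. Of the 9 genes 6 could be paired with IDs of the table through their FPKM, and all 6 were called at 3 d: LOC107413804, LOC107423197, LOC107431837, LOC107429964 and LOC107413313 higher and LOC107432409 lower. In the averaged fit LOC107413804 and LOC107423197 kept their call and the other 4 lost it, with a limma adjusted p of 0.0118 to 0.0215. LOC107432409 had 32.5, 20.8 and 18.7 FPKM at 3 d and 63.7, 83.5 and 87.0 FPKM at 0 d.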

How the data were processed

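The authors trimmed and filtered the reads (Trimmomatic 0.36 and FastQC, per the submitters' processing notes), aligned the remainder to a jujube genome (TopHat 2 with Bowtie 2) and assembled transcripts with Cufflinks; other versions and the genome build are not given in the sources used here. They deposited FPKM, 1 value per gene and library, scaled for gene length and mapped fragments. FPKM are not counts, so the count test named in the study's methods was not used, and a single library's value carries no interval. The labels give each library's day of heat and its replicate letter; the libraries at 7 d entered 1 alternative only.

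Genes that reached 1 FPKM in 3 of the 12 libraries at 0, 1, 3 and 5 d were fitted as log2(FPKM + 1) with limma 3.58.1 in R 4.3.3 (lmFit, eBayes with an intensity trend, 8 residual degrees of freedom), tested on simulated data first. Summaries and plots were made in Python 3.11.15 with pandas 2.3.3, numpy 2.4.6 and matplotlib 3.10.9. Levels between genes can be set side by side only because FPKM are per length.

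Names and descriptions came from the study's tables, 1240 IDs with a LOC name, of which 1018 occur in RefSeq's table of the Dongzao assembly; no coordinates were used. The gene lists (47 terms from the ‘HR’ sheets, 6 of them shortened, and 14 keyword families) and all members were chosen with earlier results of these data known. Genes are named by rule: the 5 largest rises and falls of all called genes and the 15 largest of described ones, each with no overlap between the groups, called members of the chaperone and factor families, up to 4 described members of each other list, the 5 most abundant at 3 d, the 4 largest of 3 d against 1 d and of 5 d against 3 d each way, on-off genes, and the qRT-PCR genes, paired where 10 libraries matched within 0.05%. A few of the genes so named are left out of the text for length. Tables' columns of the authors' own tests were not used.

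Alternatives were a pseudocount of 0.1, no filter, median-of-ratios and quantile scaling, fits of 6 and of 15 libraries, a fit with the replicate letter as a block, one with no intensity trend, an adjusted p of 0.05, and leaving out each letter or library. Averaging b and c was added after seeing the data.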

Additional observations from a re-analysis of the deposited data

Results flagged for a closer look

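The libraries at 7 d enter no comparison of the report, and a signal stood in them above the controls. LOC107430166 (HSP83) averaged 112 FPKM at 7 d with an SD of 138, against 0.452 FPKM at 0 d. The mean rests on replicate a, with 271 FPKM against 34.0 and 31.0 FPKM in b and c, and all 3 lay above every library at 0 d. The difference was not tested.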

How the results depend on the processing

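Among the named genes the direction at 3 d against 0 d turned only in 2, neither called: gene609, an abundant gene, whose log2FC was 0.76 and, without one replicate letter, between -0.26 and 1.42, and LOC107418021, whose log2FC was 0.13 and ran from -0.24 to 0.73 over the alternatives. With b and c averaged (chosen after seeing the data), 342 genes were higher and 210 lower at 3 d against 0 d, and 0 were called in either direction at 3 d against 1 d and at 5 d against 3 d. Of 149 named genes fitted that way, 57 kept their side of the threshold and 92 lost their call. Leaving out a replicate letter or library gave 234 to 2066 genes higher and 123 to 1716 lower at 3 d against 0 d, 0 to 488 higher and 0 to 418 lower against 1 d, and 0 to 341 higher and 0 to 511 lower at 5 d against 3 d.

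At 3 d against 1 d, 13 genes were higher without the filter, 4 higher and 4 lower in a fit of 6 libraries, and 139 higher and 87 lower at an adjusted p of 0.05. At 5 d against 3 d, 12 were higher with a pseudocount of 0.1, 22 higher and 14 lower with all 15 libraries, 5 higher and 1 lower with 6, and 117 higher and 121 lower at 0.05. The split at 3 d against 0 d was 1271 higher and 1494 lower after quantile normalization. The replicate letter as a block gave 1528 higher and 1309 lower at 3 d against 0 d, 10 and 12 against 1 d, and 31 and 18 at 5 d against 3 d. Deviations of libraries with the same letter correlated at 0.05, -0.01 and 0.04 (3 d with 0 d), so the letters were not taken as pairs. FPKM give no depth per value, so the precision of genes near 1 FPKM is unknown.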
